A study of Mus musculus with 20 samples.

Results

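The DNA replication and licensing genes encode the proteins that mark replication origins, unwind and copy DNA, supply its nucleotides and rebuild chromatin behind the fork. The set was a list of 49 gene symbols chosen for function, in 8 roles, and all 49 were found among the 46603 gene identifiers of the count files. All 49 passed the filter on low counts that kept 14661 genes for testing. Orc1, Clspn, Cdc6, Pole2, Gins2 and Gins3 had only 3, 5, 10, 13, 31 and 37 counts, in that order, over the 5 WT baseline libraries together, so fold changes of these 6 genes against that group rest on few reads.

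Liver RNA was sequenced from wild-type mice (WT) and from mice in which Alb:Cre deletes floxed Eed (KO), at partial hepatectomy (baseline) and 30, 40 or 48 h later (after PHx). All mice were males of 2 months. The WT mice were bought C57BL/6J animals that carry neither Alb:Cre nor the floxed Eed alleles, so the Eed deletion cannot be told apart from the Cre transgene or the colony. Alb:Cre acts in cells that express albumin, hepatocytes above all, while the libraries were made from whole liver lobes. Each of the 4 groups held 5 libraries: in both genotypes, 1 of the 5 after-PHx libraries was taken at 30 h, 2 at 40 h and 2 at 48 h. Baseline libraries came from lobes 1 to 3, removed at surgery, and after-PHx libraries from lobes 4 to 6 of the remnant, so the response to surgery cannot be told apart from the lobe. Below, libraries carry their mouse number: 1 to 5 in WT and 7, 8, 10, 11 and 12 in KO, and WT 1 and KO 12 are the 30 h mice, WT 2, WT 3, KO 10 and KO 11 the 40 h mice, and WT 4, WT 5, KO 7 and KO 8 the 48 h mice. The title of 1 WT baseline library has no number; it is called WT 1 by its place in the sample list, so whether it came from the 30 h mouse WT 1 is not given, and no comparison pairs them.

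In G1, the origin recognition complex with Cdc6 and Cdt1 loads the Mcm2 to Mcm7 helicase onto DNA, a step called licensing, and geminin (Gmnn) blocks Cdt1 once S phase begins. Cdc45 and the GINS complex then turn the loaded helicase into an active one, polymerase alpha with primase starts each strand, and polymerases delta and epsilon extend it on the PCNA clamp. Most of these genes are targets of E2F transcription factors and are transcribed from late G1 into S phase. Adult hepatocytes rest in G0, and after partial hepatectomy most of them enter the cell cycle and pass through S phase. EED is a core subunit of Polycomb repressive complex 2, which places the trimethyl mark on lysine 27 of histone H3.

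Total counts ran from 21634890 to 30461351 per library, and values are given as CPM (counts per 1000000 counts) after TMM scaling. Eed itself, the targeted gene, stood in WT at 16.8 ± 1.09 CPM before and 18.4 ± 3.98 CPM after surgery, and in KO at 5.64 ± 1.44 CPM before and 4.62 ± 1.14 CPM after (SD, n = 5 each), and the highest KO library was below the lowest WT library. In bulk tissue, fewer cells of a type and less RNA per cell cannot be told apart. Scaling by library size alone moved the median log2 fold change of all genes from -0.03 to 0.45 for KO against WT at baseline, from 0.04 to 0.40 for PHx in WT, from 0.10 to 0.37 for PHx in KO and from 0.04 to 0.55 for KO against WT at 40 h. In that scaling the baseline differences of Gmnn, Pola1 and Tk1 and the WT responses of Rnaseh2a and Tk1 change sign.

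The start-site regions of 40 members could be read from RefSeq promoter windows of 300 bases (GRCm38.p6, 250 before to 50 after each start). Windows for Gmnn, Mcm4, Gins1, Gins2, Gins4, Rfc2, Prim2, Pole and Tipin were not used here. Since E2F factors are the known regulators of this gene class, the windows were searched on both strands for the letters TTTGGCGC, TTTCCCGC, TTTCGCGC and TTTGCCGC. At least 1 of these was present in 16 of 40 members (40.0%), against 704 of 27025 genes with a window (2.61%). The CCAAT box (letters CCAAT) was found in 25 of 40 members (62.5%) against 41.1% of all genes, and the GC box (letters GGGCGG) in 29 of 40 (72.5%) against 38.2%. A match is a description of letters and not a measured binding site.

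Bases upstream of the start of 5 members are shown, 5′ to 3′ on the gene's own strand. They were picked by how their transcripts behaved and do not represent the set. Mcm5 and Mcm6 moved with most of the set, Pola1 passed the test in neither response, and Mcm10 fell in WT. Rrm2 rose in both genotypes and lay above baseline in every after-PHx library, as did Orc6, Rpa2, Fen1 and Chaf1b. Capitals mark E2F letters (runs of 8 or 12) and CCAAT boxes on either strand (runs of 5). The 12-letter runs are 2 matches, 1 on each strand, that overlap.
Mcm5, plus strand, chr8:75109329-75109508: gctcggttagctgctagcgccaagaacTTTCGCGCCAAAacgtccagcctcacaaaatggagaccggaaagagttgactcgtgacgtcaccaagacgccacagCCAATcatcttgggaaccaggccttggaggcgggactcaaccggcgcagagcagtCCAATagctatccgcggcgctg
Mcm6, minus strand, chr1:128359706-128359885: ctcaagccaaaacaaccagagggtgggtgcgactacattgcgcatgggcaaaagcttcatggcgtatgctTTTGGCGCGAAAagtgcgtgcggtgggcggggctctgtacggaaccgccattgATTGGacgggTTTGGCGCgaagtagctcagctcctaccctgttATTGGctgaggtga
Pola1, minus strand, chrX:93632156-93632335: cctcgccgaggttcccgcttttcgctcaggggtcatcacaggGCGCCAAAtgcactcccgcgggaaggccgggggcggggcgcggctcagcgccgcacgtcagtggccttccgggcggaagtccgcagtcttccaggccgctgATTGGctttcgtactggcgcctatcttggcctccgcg
Rrm2, plus strand, chr12:24708074-24708240: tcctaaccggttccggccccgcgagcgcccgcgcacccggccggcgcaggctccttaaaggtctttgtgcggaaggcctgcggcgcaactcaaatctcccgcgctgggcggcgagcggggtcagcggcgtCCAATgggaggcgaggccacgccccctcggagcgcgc
Mcm10, minus strand, chr2:5012792-5012971: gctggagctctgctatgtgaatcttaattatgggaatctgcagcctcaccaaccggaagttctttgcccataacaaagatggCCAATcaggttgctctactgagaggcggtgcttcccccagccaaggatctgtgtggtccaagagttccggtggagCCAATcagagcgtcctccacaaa
Mcm5 and Mcm6 each carry an overlapping pair of E2F matches and 2 CCAAT boxes, and Mcm6 a further E2F match nearer its start. Pola1 carries 1 E2F match and 1 CCAAT box. Rrm2 and Mcm10 have no E2F letters in their windows, and both have CCAAT boxes. Of the members with a window that rose in WT after PHx, 13 have an E2F match and 13 have none. Those with none include Mcm2, Orc6, Cdc45, Pcna, Rfc4, Rpa2, Fen1, Chaf1a, Chaf1b, Timeless and Rrm2 itself. Of the members with a window that were not called in WT, 3 have a match (Rfc3, Pola1 and Pold1) and 10 have none, as has Mcm10, which fell. A relation between match and rise was not tested.

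At rest, transcript levels differed widely within the set. Per kilobase of transcript, the highest mean levels in WT baseline libraries were those of Mcm10 at 12.3 CPM per kb, Gins4 at 9.89, Pcna at 8.86 and Pold2 at 6.64. The lowest were Clspn at 0.0085 CPM per kb, Orc1 at 0.0093 and Cdc6 at 0.0192, the first a checkpoint mediator and the others licensing factors. The 6 subunits of the Mcm2 to Mcm7 helicase, which form a ring with 1 copy of each, were unequal at rest: the highest level per kb was 8.22 to 13.4 times the lowest within a WT baseline library and 3.18 to 5.34 times within a KO baseline library. After PHx this ratio was 3.2, 7.6, 2.8, 8.8 and 3.9 in WT 1 to 5 and 3.9, 3.5, 2.9, 2.4 and 3.3 in KO 7, 8, 10, 11 and 12. The helicase genes were highest in WT 1, but ratios as low were also found where they were far lower, as in WT 3 and KO 12.

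After partial hepatectomy levels of the set varied widely between libraries of 1 group. In WT 1 (30 h), 48 of 49 members were above the range of the 5 WT baseline libraries, against 27.9% of all tested genes, and the median member stood 3.16 log2 units over the WT baseline mean (0.5 CPM added to both). WT 5 (48 h) had 46 of 49 members above that range (28.6% of all genes, median 2.34). KO 10 (40 h) had 47 of 49 above the KO baseline range (26.3% of all genes, median 2.37) and KO 11 (40 h) had 42 (32.8% of all genes, median 1.14). In these 4 libraries the set was high as a whole.

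The other 6 after-PHx libraries stayed near baseline or showed a mixture. WT 3 (40 h) had 32 members above and 4 below the WT baseline range (29.7% and 30.8% of all genes), with a median of 0.63 log2 units. WT 4 (48 h) had 23 above and 9 below (36.4% and 34.7%), with a median of 0.39. WT 2 (40 h) had 16 above and 13 below (34.9% and 35.1%), with a median of 0.04. These 3 WT mice thus ran from a partial rise to almost none. KO 8 (48 h) had 21 above and 6 below the KO baseline range (39.2% and 32.1% of all genes), with a median of 0.27. KO 7 (48 h) had 16 above and 16 below (39.0% and 35.8%), with a median of -0.08. KO 12 (30 h) had 8 above and 23 below (32.6% and 39.5%), with a median of -0.49. Mice of 1 genotype and 1 hour therefore differed widely, as WT 4 and WT 5 did at 48 h. The highest of the 20 libraries was WT 1 for 39 members and KO 10 for 8 (Rfc2, Rfc5, Rpa1, Lig1, Rrm2, Tyms, Tk1 and Dut), and it was KO 7 for Orc2 and the WT 3 baseline library for Mcm10.

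**Figure D1:**
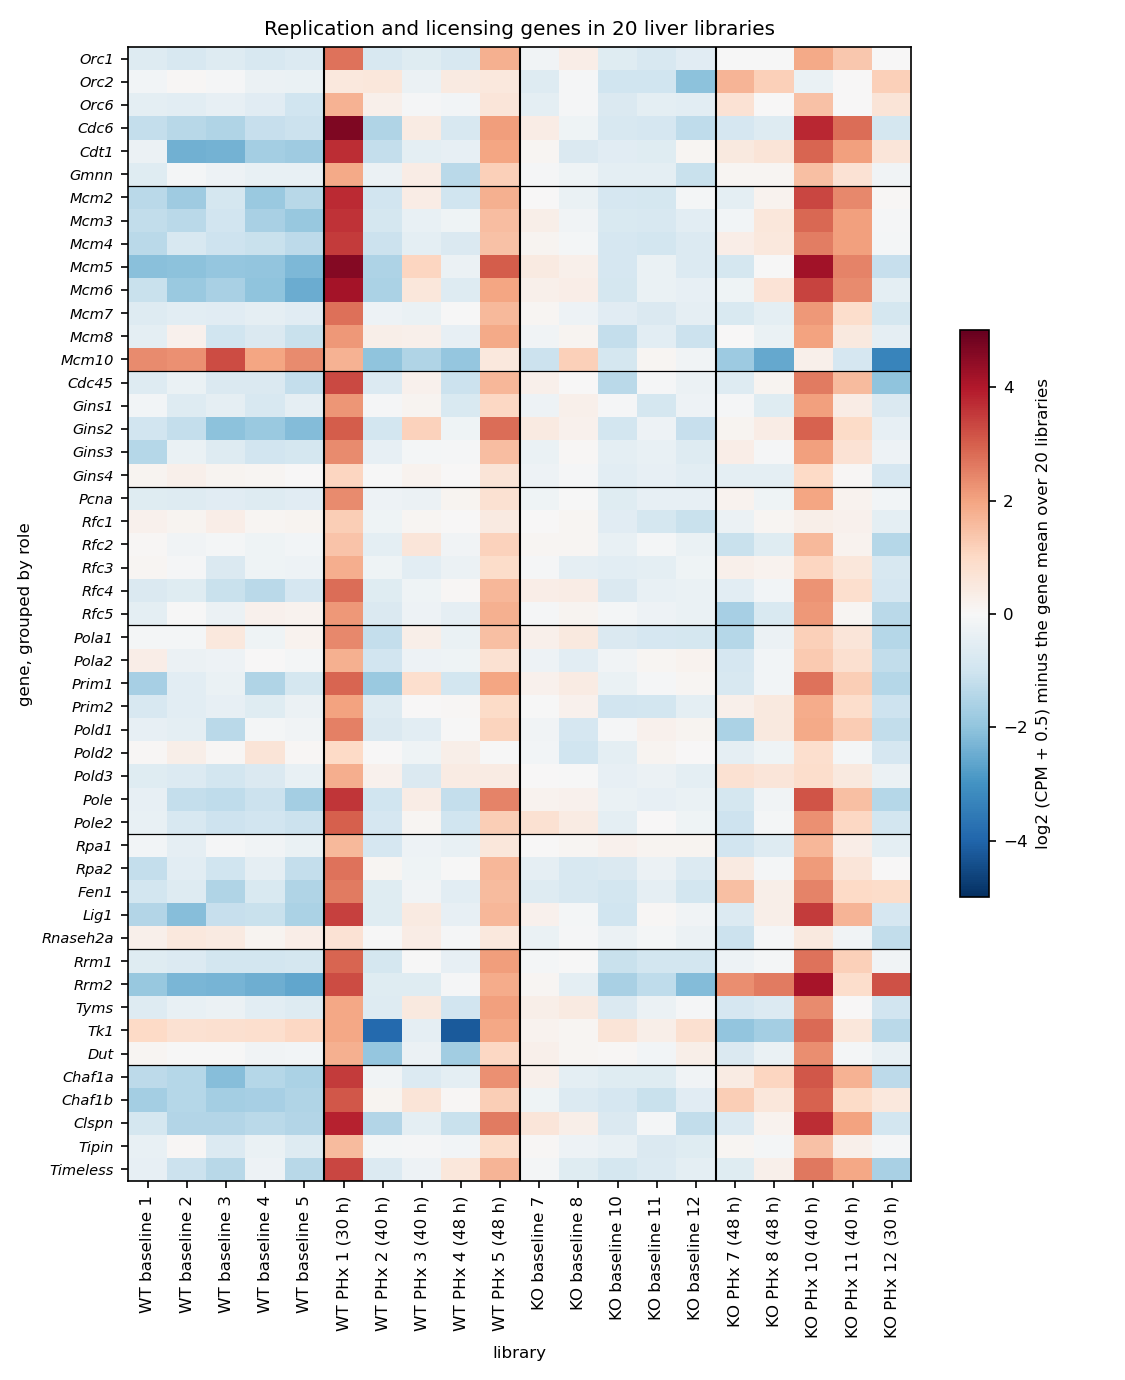
Level of each of the 49 members (rows, by role) in each of the 20 libraries (columns, by group), as log2(CPM + 0.5) less the gene's mean over the 20 libraries, in color. Most members are red (high) in WT 1, WT 5, KO 10 and KO 11 after PHx, while Mcm10 is high in the 5 WT baseline libraries.

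**Figure D2:**
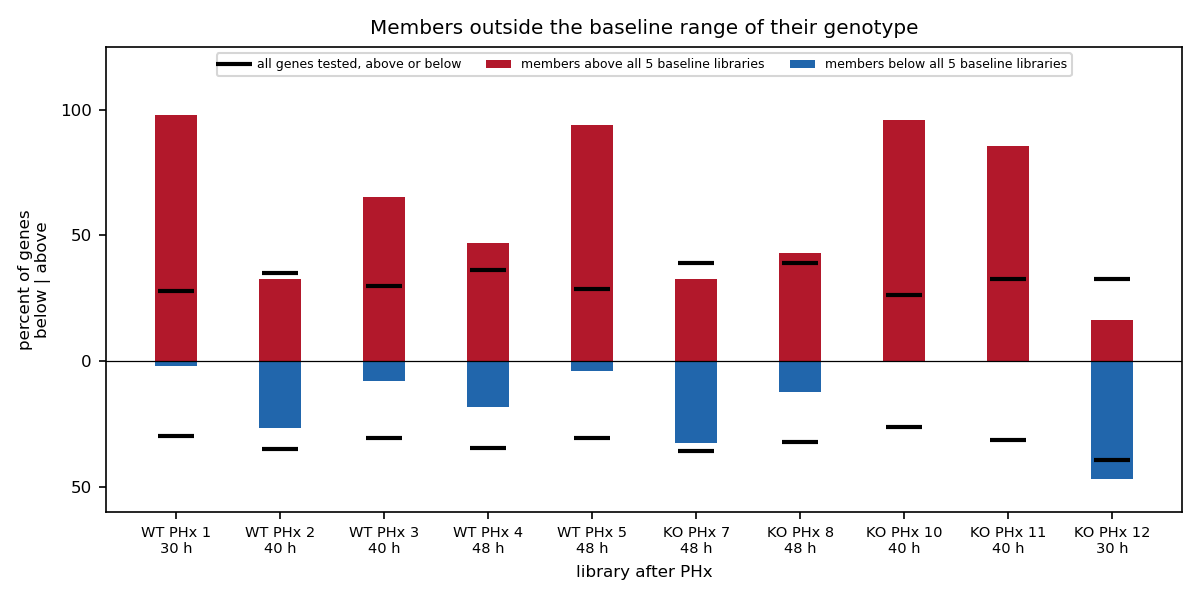
Percent of the 49 members above (bars upward) or below (bars downward) all 5 baseline libraries of the same genotype, in each after-PHx library, with black lines for the percent of all tested genes. The bars for WT 1, WT 5, KO 10 and KO 11, with 48, 46, 47 and 42 members above, stand far over the lines.

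In WT liver, 29 of the 49 members rose after partial hepatectomy and 1, Mcm10, fell (edgeR quasi-likelihood test, adjusted p under 0.05), against 11.4% of all tested genes called higher and 8.68% called lower. The median member differed by 2.03 log2 units and the median of all genes by 0.04. The rise was seen in the Mcm2 to Mcm7 helicase with its relatives Mcm8 and Mcm10 (7 of 8 higher, Mcm10 lower). It was also seen in chromatin assembly and fork protection (4 of 5), licensing (4 of 6), helicase activation (3 of 5) and single-strand binding and Okazaki processing (3 of 5). It was seen in 4 of 9 polymerase and primase genes, 2 of 5 nucleotide supply genes and 2 of 6 clamp and clamp loader genes. The libraries did not overlap for 12 members that were higher and 1 that was lower, against 6.91% and 10.9% of all genes.

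Mcm5, a subunit of the loaded helicase, had 1.17, 1.20, 1.39, 1.33 and 1.01 CPM in WT baseline libraries 1 to 5 and 170.4, 1.91, 14.4, 5.25 and 57.1 CPM in WT 1 to 5 after PHx. Every after-PHx library was above every baseline library, but WT 2 by less than 1 CPM, and the log2 difference was 5.35 (SE 1.19, adjusted p = 0.00445). Mcm2, another helicase subunit, had 2.54, 1.75, 3.65, 1.61 and 2.48 CPM at baseline and 102, 3.44, 9.40, 3.37 and 25.7 CPM after PHx. WT 2 and WT 4 lay within the Mcm2 baseline range, and the log2 difference was 3.58 (SE 0.89, adjusted p = 0.00894).

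Among the licensing genes, Cdc6, which brings the helicase to the origin complex, had 0.130, 0.05, 0, 0.138 and 0.184 CPM at baseline and 35.4, 0, 1.37, 0.319 and 5.49 CPM after PHx. It was thus near 0 in WT 2 and WT 4 and rose in the fit by 6.33 log2 units (SE 1.69, adjusted p = 0.0129). Cdt1, its partner in loading, had 3.38, 0.400, 0.412, 0.963 and 0.872 CPM at baseline, where WT 1 stood apart, and 60.96, 1.57, 2.85, 3.12 and 18.2 CPM after PHx (log2 difference 3.87, SE 0.92, adjusted p = 0.00664). Orc6 rose by 1.37 (SE 0.36, adjusted p = 0.0127) and Orc1, the largest origin recognition subunit, by 5.45 (SE 1.57, adjusted p = 0.0192). For Orc1 the pooled counts were 194 after PHx and 3 at baseline, a ratio of CPM of 49.1 with a 95% counting interval of 16.6 to 240.3. Gmnn, the inhibitor of Cdt1, was 1.18 log2 units higher without passing the test (adjusted p = 0.0846).

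At the fork, Pcna, the sliding clamp, had 21.3, 20.5, 21.6, 20.9 and 21.97 CPM at baseline and 168, 27.1, 26.7, 36.1 and 55.5 CPM after PHx. The 5 baseline libraries lay within 2 CPM of each other and all 5 after-PHx libraries were above them (log2 difference 1.56, SE 0.47, adjusted p = 0.0246). Rfc4 of the clamp loader rose by 2.58 (SE 0.71, adjusted p = 0.0148). Pole, the catalytic subunit of the leading-strand polymerase, had 1.95, 0.950, 0.875, 1.05 and 0.505 CPM at baseline and 38.02, 1.13, 3.77, 0.922 and 17.96 CPM after PHx. WT 2 and WT 4 lay within the Pole baseline range (log2 difference 3.54, SE 1.01, adjusted p = 0.0181). Pola1, the catalytic subunit of polymerase alpha, was 1.10 (SE 0.66, adjusted p = 0.255) and did not pass.

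Behind the fork, the flap nuclease gene Fen1 had 4.81, 5.80, 2.98, 5.27 and 3.03 CPM at baseline and 60.2, 5.96, 8.33, 6.42 and 28.98 CPM after PHx (log2 difference 2.33, SE 0.56, adjusted p = 0.00688). DNA ligase Lig1, which seals Okazaki fragments, rose by 3.57 (SE 0.89, adjusted p = 0.00901), and Rpa2 of the single-strand binding complex by 2.33 (SE 0.55, adjusted p = 0.00641). Chaf1b, a subunit of the histone chaperone CAF-1, had 0.520, 0.750, 0.515, 0.550 and 0.688 CPM at baseline and 28.3, 3.18, 4.76, 2.98 and 7.31 CPM after PHx. All 5 after-PHx libraries were clear of baseline, and its log2 difference was 3.93 (SE 0.65, adjusted p = 0.000542). Clspn, a mediator of the replication checkpoint, rose by 6.60 (SE 1.77, adjusted p = 0.0133) from 5 counts in the whole WT baseline group. Cdc45 rose by 2.73 (SE 0.95, adjusted p = 0.0482), while Gins1 (1.55, SE 0.59, adjusted p = 0.0669) and the thymidylate synthase gene Tyms (1.64, SE 0.66, adjusted p = 0.0829) did not pass.

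The WT count depended on the mice. Without WT 1, the 30 h mouse, 16 members were called higher in WT (11.4% of all genes), and without the 30 h libraries of both genotypes 19 were (12.7% of all genes). In a fit with the mouse as a block, over the mice numbered in both titles, which leaves out WT 1, 4 were higher and Mcm10 was lower, against 5.9% of all genes higher and 7.31% lower, so the share of members called higher was near that of all genes. In the block fit, Cdt1 (2.72, adjusted p = 0.0196), Rrm2 (2.71, adjusted p = 0.0281) and Chaf1b (2.78, adjusted p = 0.0065) passed. Of the 25 calls lost with the block, those of the genes described above were Mcm5 (2.93, adjusted p = 0.113), Mcm2 (1.68, 0.17), Orc1 (3.64, 0.292), Orc6 (0.88, 0.169), Cdc6 (3.45, 0.206), Cdc45 (0.86, 0.654), Pcna (0.71, 0.237), Rfc4 (1.47, 0.198), Pole (1.70, 0.328), Rpa2 (1.22, 0.126), Fen1 (1.22, 0.153), Lig1 (2.11, 0.115) and Clspn (6.27, 0.0812), each given as the log2 difference and the adjusted p. Leaving out WT 1 alone ended 13 calls, among them those of Cdc6 (4.10, adjusted p = 0.0512), Orc1 (4.18, 0.0568), Rfc4 (1.70, 0.0621), Pole (2.49, 0.0634), Pcna (0.77, 0.136) and Cdc45 (1.43, 0.244). Without WT 4 after PHx, Gmnn (1.497, adjusted p = 0.0196), Gins1 (1.85, 0.0376) and Tyms (1.95, 0.049) passed. In a fit on the WT samples alone, Cdc6, Clspn, Orc1 and Pole2 did not pass the filter on low counts and were not tested, as Orc1 was not with a filter on CPM, and Prim2 and Tyms were called. The call of Pcna was also lost without the WT 2, WT 3 or WT 4 baseline library (adjusted p from 0.0507 to 0.0522), that of Orc1 without the WT 4 baseline library (0.0502), and that of Cdc45 without any 1 baseline library or WT 5 after PHx (0.0601 to 0.103).

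In KO liver, 8 members rose after partial hepatectomy and none fell, against 17.5% of all genes called higher and 12.1% called lower, so in this fit the share of members called higher was close to that of all genes. With DESeq2, 19 were called, against 21% of all genes higher, and at an unadjusted p under 0.05 the edgeR fit gave 25 higher and 0 lower, against 24.6% and 18.1% of all genes. The median member differed by 1.22 log2 units and the median of all genes by 0.10, and 47 of 49 members had a positive difference. The called genes were Orc2, Orc6, Mcm2, Rpa2, Fen1, Rrm1, Rrm2 and Chaf1b, which belong to 5 of the 8 roles. The KO libraries did not overlap for 6 members, all higher (Orc6, Cdt1, Rpa2, Fen1, Rrm2 and Chaf1b), against 6.19% of all genes higher.

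Mcm2 had 7.30, 5.66, 3.76, 3.70 and 6.76 CPM in KO baseline mice 7, 8, 10, 11 and 12 and 4.94, 8.28, 76.7, 40.5 and 7.53 CPM in the same mice after PHx (log2 difference 2.34, SE 0.84, adjusted p = 0.0414). Only KO 10 and KO 11 were far above baseline. Mcm5 had 9.13, 8.03, 3.52, 5.23 and 3.99 CPM at baseline and 3.33, 6.46, 129, 39.2 and 2.75 CPM after PHx, with KO 7 and KO 12 below the baseline range (log2 difference 2.59, SE 1.03, adjusted p = 0.062). Cdc6 had 1.33, 0.718, 0.310, 0.291 and 0.0939 CPM at baseline and 0.300, 0.417, 19.1, 9.48 and 0.284 CPM after PHx. As for Mcm5, 2 libraries were high and the difference did not pass (3.40, SE 1.38, adjusted p = 0.0684).

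Fen1 and Chaf1b lay above the baseline range in all 5 KO mice after PHx. Fen1 had 5.91, 5.11, 4.72, 6.69 and 4.69 CPM at baseline and 27.6, 11.8, 54.2, 19.2 and 18.4 CPM after PHx, with no overlap (log2 difference 2.27, SE 0.55, adjusted p = 0.00607). Chaf1b had 2.36, 1.56, 1.34, 1.04 and 1.74 CPM at baseline and 7.28, 4.39, 25.2, 6.00 and 4.31 CPM after PHx, also with no overlap (2.55, SE 0.60, adjusted p = 0.00518). Pcna had 28.1, 32.3, 21.3, 24.8 and 24.7 CPM at baseline and 36.7, 28.3, 131, 36.5 and 29.7 CPM after PHx, so that KO 8 and KO 12 lay within the baseline range (1.00, SE 0.46, adjusted p = 0.107). Orc6 rose by 1.22 (SE 0.36, adjusted p = 0.0173) and Rpa2 by 1.55 (SE 0.53, adjusted p = 0.0349). With the mouse as a block, Mcm2 (1.49, adjusted p = 0.159) and Rpa2 (1.26, adjusted p = 0.0553) no longer passed and Cdt1 did (1.77, adjusted p = 0.0368). The count was 24 without the 30 h libraries of both genotypes (16.2% of all genes higher) and 16 without KO 12 (15.7%), both above the share of all genes. It was 5 without KO 10 (22.8% of all genes) or without any 1 of the KO baseline libraries (12.6% to 14.6%). Without any 1 of those 6 libraries neither Mcm2 (adjusted p from 0.0601 to 0.138) nor Rpa2 (0.0538 to 0.136) passed, nor did Rrm1, and without KO 11 Mcm2 (0.0698) and Rrm1 did not, while Mcm5 passed without KO 12 (0.0417) or KO 7 (0.0492).

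**Figure D3:**
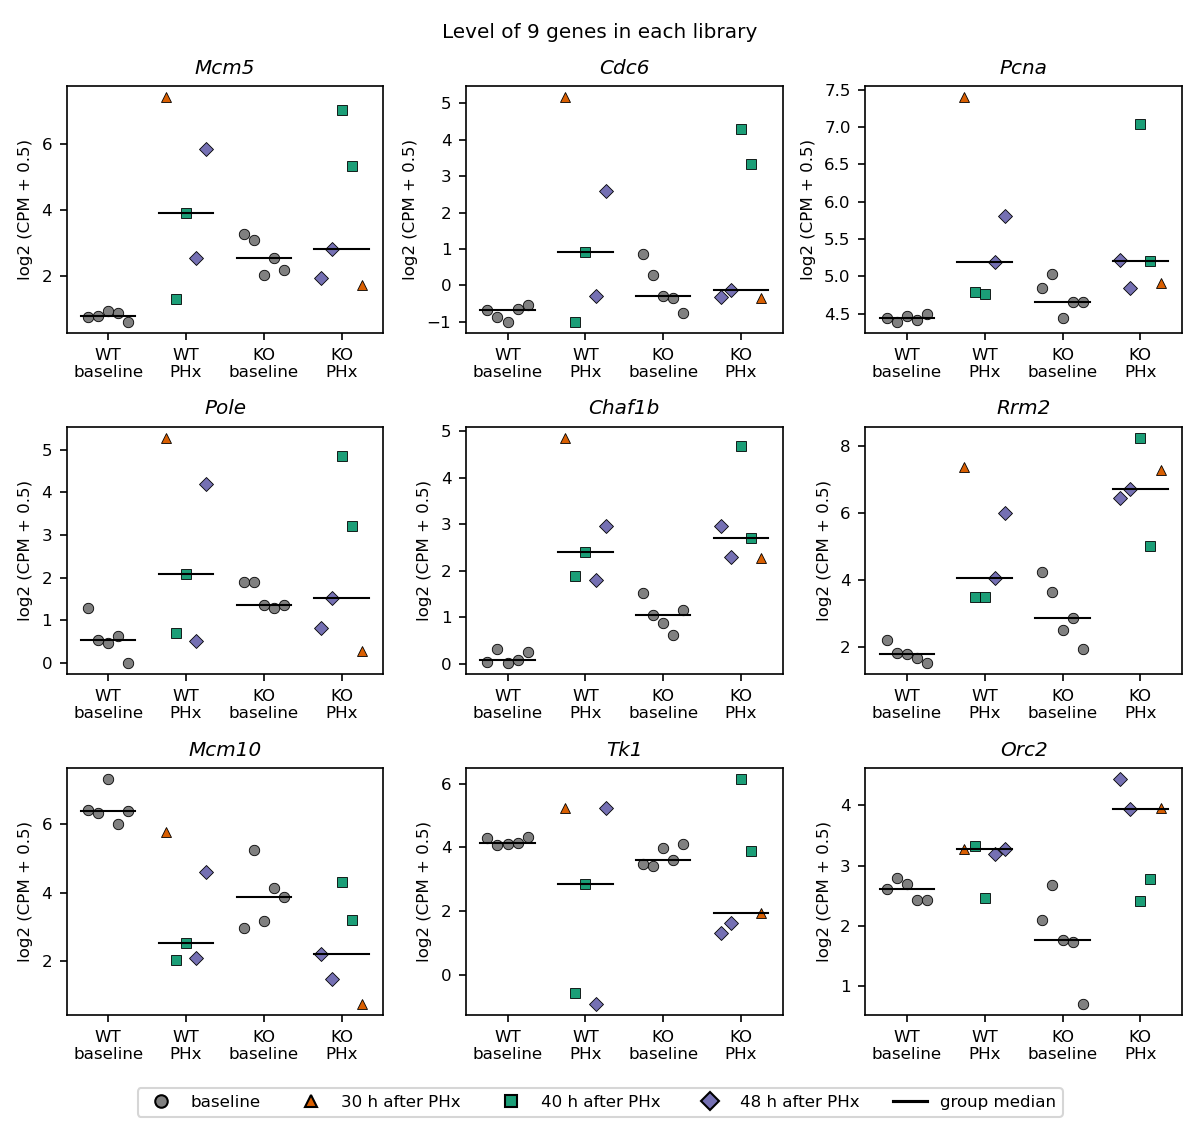
Level of 9 members in each of the 20 libraries, as log2(CPM + 0.5), by group, with a line at the group median and the symbol giving the hour after PHx. Mcm5, Cdc6 and Pole spread widely within each after-PHx group, Rrm2 lies above the baseline of its genotype in every after-PHx library, and Mcm10 is highest in WT baseline.

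Before surgery, no member was called higher in KO than in WT and 1, Mcm10, was called lower, against 11.1% of all genes called higher and 4.89% called lower. At an unadjusted p under 0.05, 5 members were higher and 3 lower, against 18.3% and 12.2% of all genes, and DESeq2 called 1 higher, Gins2, and 1 lower, against 14.7% and 6.15%. Even so, 36 of 49 members had a positive difference (median 0.35 log2 units, -0.03 over all genes), and the KO libraries lay wholly above the WT libraries for 10 members, a share of the set near the 15.6% of all genes. The 10 were Mcm2, Mcm3, Mcm5, Mcm6, Prim1, Pole, Rpa1, Lig1, Chaf1a and Chaf1b. Mcm10, Gins4, Rfc1 and Rnaseh2a lay wholly below, against 12.2% of all genes.

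Mcm5 was 1.01 to 1.39 CPM in WT baseline and 3.52 to 9.13 CPM in KO baseline, a log2 difference of 2.29 (SE 1.08, adjusted p = 0.155) with a 95% interval of 0.05 to 4.53. Chaf1b was 0.51 to 0.75 CPM in WT baseline and 1.04 to 2.36 CPM in KO baseline (1.40, SE 0.62, adjusted p = 0.13). Both separated the genotypes in these libraries without passing the test across all genes. Rrm2 was 1.58 (SE 0.71, adjusted p = 0.136), Lig1 1.58 (SE 0.85, adjusted p = 0.217), and Clspn 3.82 (SE 1.75, adjusted p = 0.144). Orc1 had 26 counts in KO and 3 in WT baseline, a ratio of CPM of 6.66 with a counting interval of 2.04 to 34.4.

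The count depended on which samples entered the fit. With a fit on the baseline samples alone, 17 of the 45 members tested were called higher and 4 lower in KO, against 21.4% and 18% of all genes. The share higher was thus above that of all genes and the share lower below it. The main fit took 1 estimate of spread per gene over all 20 libraries. For Mcm5 the SD was 0.15 CPM in WT and 2.48 in KO at baseline, and 70.9 in WT and 54.0 in KO after PHx. The part of this spread in the baseline calls was not tested. Without the 30 h libraries 1 was called higher, Chaf1b. Summed levels of other cell types' markers also differed at baseline: 10 macrophage markers summed to 167 to 286 CPM in WT and 417 to 548 CPM in KO (3 of 10 called higher). The 10 stellate cell markers summed to 169 to 277 CPM in WT and 455 to 635 CPM in KO (7 of 10 called higher), and the 9 cholangiocyte markers to 34.1 to 79.1 and 73.9 to 384 CPM (1 of 7 tested called higher), with Sctr at 0 in WT baseline. Of the tested markers of other types, 1 of 10 endothelial, 1 of 5 lymphocyte and 1 of 3 neutrophil genes were called higher and 1 of 5 erythroid genes lower. The 11 hepatocyte markers summed to 137770 to 158471 CPM in WT and 85609 to 113267 CPM in KO (4 of 11 called lower), and to at least 46721 CPM in every library of the study. Their part in the result was not tested.

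**Figure D4:**
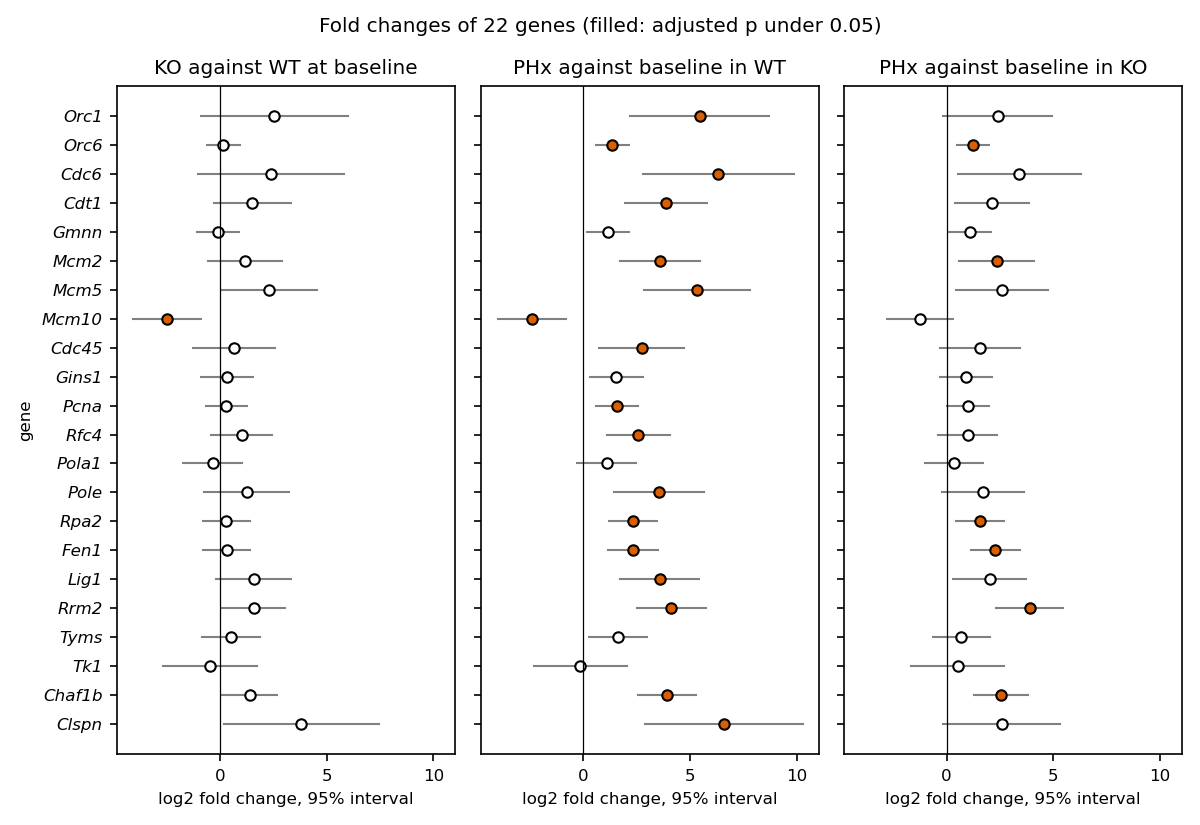
Log2 fold change (points) with its 95% interval (lines) of 22 members in KO against WT at baseline (left), PHx against baseline in WT (middle) and PHx against baseline in KO (right), with points filled where the adjusted p is under 0.05. Most points are filled in WT, fewer in KO, and at baseline Mcm10 alone is filled.

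After PHx, over all hours, no member passed the test between the genotypes, against 16% of all genes called higher in KO and 8.2% called lower. At an unadjusted p under 0.05 the counts were 0 higher and 1 lower, against 21.6% and 14.9% of all genes, and DESeq2 called 0, against 18.2% and 10.3%. A fit with a time term and a fit without the 30 h libraries each called 1 higher, Rrm2. The differences were negative for 41 of 49 members, with a median of -0.32 log2 units (-0.01 over all genes), and the libraries of both genotypes overlapped for all 49, while 7.05% of all genes lay wholly above and 2.97% wholly below. The highest were Rrm2 at 1.35 (SE 0.68, adjusted p = 0.157), Orc2 at 0.59 (SE 0.38, adjusted p = 0.271) and Fen1 at 0.26 (SE 0.52, adjusted p = 0.759). The lowest were Mcm10 at -1.34 (SE 0.75, adjusted p = 0.204), Pola1 at -1.08 (SE 0.66, adjusted p = 0.245) and Rnaseh2a at -0.63 (SE 0.27, adjusted p = 0.0958). The interval for Mcm5, -2.47 to 1.55 log2 units, leaves room for large differences either way. Without KO 10, 7 members were called lower in KO, against 14.4% of all genes, a share near that of all genes, among them Mcm10 (-2.14, adjusted p = 0.0382) and Rnaseh2a (-0.91, adjusted p = 0.00812), and without WT 1 Rrm2 was called higher (2.42, adjusted p = 0.0106).

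The test of the difference between the PHx responses of KO and WT called 0 of 49 members, against 0.164% of all genes higher and 0.225% lower, with 1 higher and 1 lower at an unadjusted p under 0.05 (7.33% and 6.02% of all genes) and 0 by DESeq2 (1.3% and 1.24%). The larger number of calls in WT (29) than in KO (8) is therefore not shown to be a difference in response. The differences were negative for 42 members, with a median of -0.73 log2 units (0.00 over all genes). The lowest were Clspn at -4.03 (SE 2.15, adjusted p = 0.426), Orc1 at -3.05 (SE 1.99, adjusted p = 0.527) and Pole2 at -3.03 (SE 1.61, adjusted p = 0.424), 3 genes with few counts in WT baseline. The highest was Orc2 at 1.34 (SE 0.54, adjusted p = 0.279).

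Split by hour, with 2 libraries per genotype at 40 h and at 48 h, the median genotype difference was positive at 40 h and negative at 48 h. At 40 h, 27 members were higher in KO than in WT and none lower, against 8.61% of all genes higher and 4.68% lower, with a median of 2.05 log2 units. At 48 h, none was higher and 5 were lower in KO (Mcm5, Mcm7, Gins4, Rfc2 and Rfc5), against 13.7% higher and 10.7% lower, with a median of -0.95. In this fit the share of members called lower at 48 h was no larger than that of all genes, but at an unadjusted p under 0.05, 17 were lower (18% of all genes), DESeq2 called 13 lower (15.1%) and a fit with no filter on low counts 14 (6.86%). The direct test of the change, added after values had been seen, called 21 members lower and 0 higher at 48 h less 40 h, against 3.11% and 1.61% of all genes, with a median of -3.42.

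Mcm5 stood at 1.91 and 14.4 CPM in the WT mice and 129 and 39.2 CPM in the KO mice at 40 h, a log2 difference of 3.36 (SE 0.94, adjusted p = 0.0293). At 48 h it stood at 5.25 and 57.1 CPM in WT and 3.33 and 6.46 CPM in KO, a difference of -2.67 (SE 0.91, adjusted p = 0.0436). So the 40 h mice did not overlap, and at 48 h the lower WT mouse lay between the KO mice. The difference between hours was -6.03 (SE 1.31, adjusted p = 0.0274) for Mcm5, -7.34 (SE 1.86, adjusted p = 0.0382) for Cdc6 and -7.92 (SE 2.17, adjusted p = 0.0479) for Clspn. At 40 h, Orc1 was 5.62 (SE 1.77, adjusted p = 0.0464) higher in KO, with 132 counts against 2 and a ratio of CPM of 52.3 (counting interval 14.2 to 436.3), Clspn 5.45 (SE 1.66, adjusted p = 0.0412) and Cdc6 4.35 (SE 1.34, adjusted p = 0.0431). Orc2 at -0.37, Rnaseh2a at 0.01 and Rfc1 at 0.31 were the lowest.

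The mice of each hour were also compared, without pairing, with all baseline libraries of their genotype. The WT mice had 4 members higher at 40 h (Mcm5, Gins2, Lig1 and Chaf1b) and 1 lower (Mcm10), against 9.81% and 8.11% of all genes. They had 29 higher and 1 lower at 48 h, against 11.7% and 8.43%. The KO mice had 36 higher and 0 lower at 40 h, against 5.64% and 3.04%. They had 6 higher (Orc2, Orc6, Pold3, Fen1, Rrm2 and Chaf1b) and 2 lower (Mcm10 and Rpa1) at 48 h, against 23.1% and 19.5%. At 40 h in WT and at 48 h in KO the shares called were thus not above those of all genes. In WT the 48 h differences were led by Clspn at 6.14 (SE 1.36, adjusted p = 0.00551), Orc1 at 5.13 (SE 1.33, adjusted p = 0.0135) and Gins2 at 4.79 (SE 0.92, adjusted p = 0.00243). For Orc1 these were 72 counts against 3, a ratio of CPM of 41.2 (13.5 to 204.5). In KO the 40 h differences were led by Cdc6 at 4.66 (SE 0.95, adjusted p = 0.00821), Rrm2 at 4.18 (SE 0.64, adjusted p = 0.00156) and Mcm5 at 3.81 (SE 0.68, adjusted p = 0.00379).

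These time comparisons rest on single mice. Without WT 5, 7 members were called higher at 48 h in WT, near the 13.5% of all genes, and without KO 10, 14 were called higher at 40 h in KO (8.97% of all genes). Between genotypes at 40 h, 7 members were called higher without KO 10 (11.2% of all genes) and 1 without WT 2 (0.964% of all genes), Pold3, none of the 27. At 48 h, 0 were called lower without KO 7 (4.65% of all genes) or without WT 5 (5.76%), and 28 without WT 4 (17%). Without KO 8, the calls of Gins4, Mcm5 and Rfc2 ended. In the added test, 2 were called lower without KO 10 (0.321% of all genes), 37 without KO 11 (7.73%) and 1 without KO 7 (0.359%). It called 0 without WT 2 (0.087%), 43 without WT 4 (13.8%) and 2 without WT 5 (0.348%).

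Several calls named by hour also ended when 1 library was left out. The call of Mcm5 at 48 h between genotypes was lost without KO 7 (-2.31, adjusted p = 0.209), KO 8 (-3.32, 0.0889) or WT 5 (-0.18, 0.906). At 48 h in WT, those of Clspn (1.40, adjusted p = 0.626), Orc1 (-2.85, 0.512) and Gins2 (2.37, 0.1) were lost without WT 5, and that of Mcm10 without WT 4 (-1.92, 0.177). At 40 h in WT, that of Gins2 was lost without WT 3 or without the WT 3, WT 4 or WT 5 baseline library (adjusted p from 0.0602 to 0.49), that of Mcm5 without WT 3 (0.65, 0.665) and that of Mcm10 without WT 2 (-4.15, 0.0509). That of Lig1 was lost in each of the 7 fits without 1 library of the comparison, WT 2, WT 3 or any WT baseline library. At 40 h in KO, that of Rrm2 was lost without KO 10 (1.80, adjusted p = 0.0626). At 48 h in KO, that of Fen1 was lost without KO 7 (1.08, adjusted p = 0.18) and that of Mcm10 without KO 7 (-2.91, 0.0596) or KO 8 (-2.11, 0.123). Those of Orc6 and Rpa1 were also lost without KO 8, that of Orc6 also without the KO 7, KO 10, KO 11 or KO 12 baseline library, and 6 of the 8 calls ended without KO 7. The 40 h calls of Orc1, Cdc6 and Clspn between genotypes were each lost without KO 10, KO 11 or WT 2, and that of Orc1 also without WT 3 (adjusted p from 0.0687 to 0.269), while the log2 differences in those fits were 4.76 to 8.83 for Orc1, 3.37 to 4.77 for Cdc6 and 4.31 to 6.08 for Clspn. Without WT 3, Cdc6 was 11.53 and Clspn 11.20 at 40 h. Those of Cdc6 and Clspn in the added test were lost without KO 7, KO 8, KO 10, WT 2 or WT 5 (0.0696 to 0.535). Over all 8 fits without 1 mouse their values in that test ran from -14.53 (without WT 3) to -4.27 (without WT 5) for Cdc6 and from -13.67 to -3.24, without the same mice, for Clspn. At 30 h there was 1 mouse per genotype and no test: the median member stood 3.16 log2 units over baseline in WT 1 and -0.49 in KO 12.

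**Figure D5:**
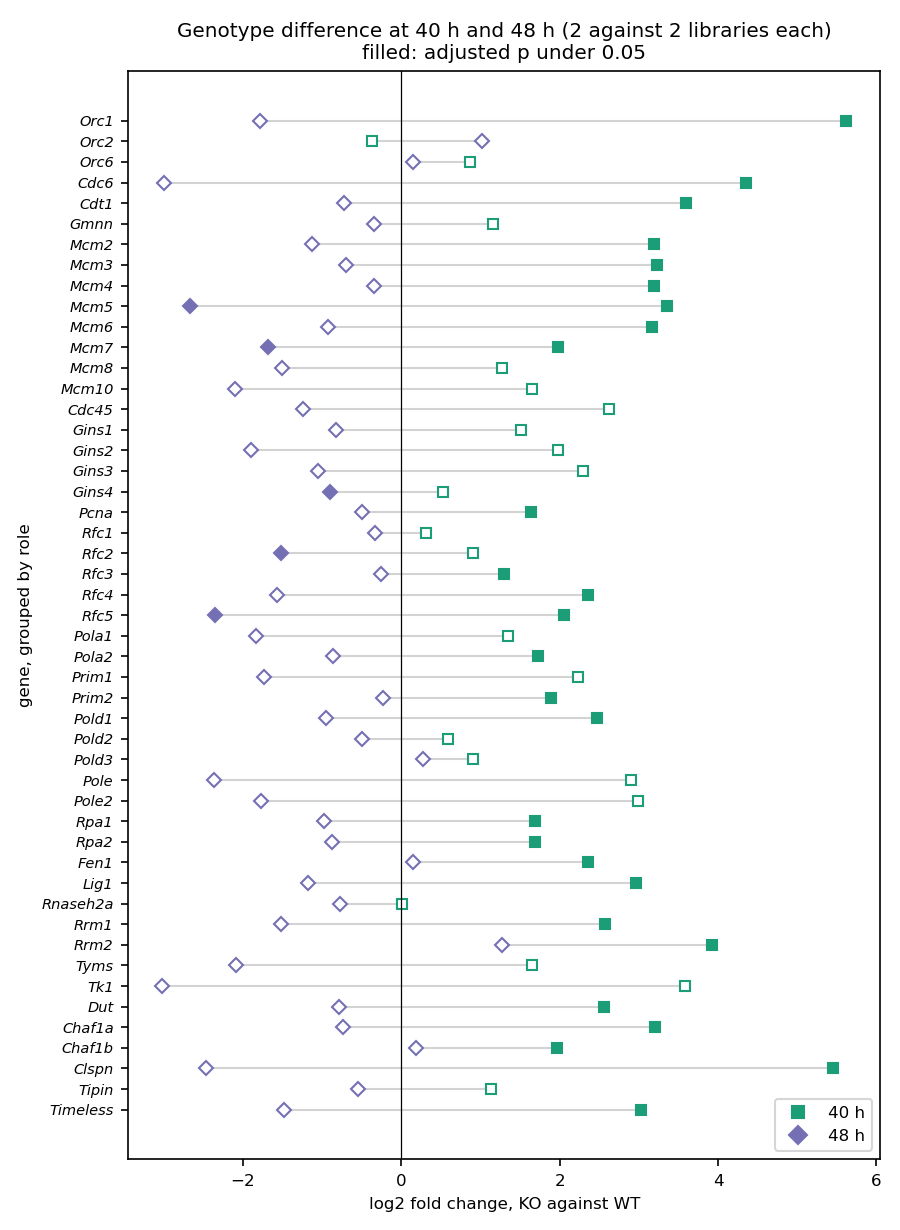
Log2 fold change of KO against WT for each of the 49 members at 40 h (squares) and 48 h (diamonds), 2 against 2 libraries each, joined by a line per gene and filled where the adjusted p is under 0.05. Nearly all squares lie right of 0, with 27 filled, and most diamonds left of it, with 5 filled.

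Marker sums of other cell types differed between the after-PHx mice as well. Neutrophil markers summed to 2.75, 18.2, 39.9, 20.3 and 1.41 CPM in WT 1 to 5 and 62.4, 18.3, 4.00, 5.49 and 10.6 CPM in KO 7, 8, 10, 11 and 12 after PHx. The lowest sums in each genotype were those of the mice in which the set was highest, WT 1, WT 5, KO 10 and KO 11. At WT baseline they were 0.36 to 0.98 CPM, below every WT library after PHx (3 of 3 tested called higher). Ly6g, Mpo and Camp were at 0 in all WT baseline libraries and Ly6g and Elane in all KO baseline libraries. Cholangiocyte markers summed to 35.4, 97.6, 256, 123 and 48.4 CPM in WT 1 to 5, lowest in WT 1 and WT 5, and to 603, 590, 203, 310 and 136 CPM in KO 7, 8, 10, 11 and 12 after PHx.

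In WT, 3 of these sums were lower in every after-PHx library than in every baseline library. Endothelial markers went from 227 to 268 CPM at baseline to 99.5 to 183 CPM after PHx (3 of 10 called lower), lymphocyte markers from 6.02 to 9.75 to 1.10 to 5.78 CPM (3 of 5 tested called lower), and hepatocyte markers from 137770 to 158471 to 83320 to 132480 CPM (4 of 11 called lower). In KO, endothelial markers were 269 to 323 CPM at baseline and 119 to 237 CPM after PHx, with no overlap (3 of 10 called lower, 1 higher), while lymphocyte markers, at 7.75 to 25.95 and 3.28 to 8.73 CPM (4 of 5 called lower), and hepatocyte markers, at 85609 to 113267 and 46721 to 107079 CPM (3 of 11 called lower), overlapped. Macrophage markers summed to 73.1 to 369 CPM in WT after PHx and to 83.8 to 379 CPM in KO, where every library was below the KO baseline (4 of 10 called lower, 1 higher). Stellate markers summed to 186 to 254 CPM in WT and 296 to 540 CPM in KO after PHx. Erythroid markers summed to 293 to 430 CPM in WT and 142 to 243 CPM in KO at baseline and to 124 to 351 and 72.3 to 158 CPM after PHx, with Ermap at 0 in WT baseline and Gata1 at 0 in WT after PHx. The part of these cell types in the results was not tested.

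Mcm10, an initiation factor that joins the helicase as it is activated, did not follow the other MCM genes. Its levels were 85.6, 80.9, 159, 64.1 and 84.3 CPM at WT baseline and 54.1, 3.61, 5.33, 3.79 and 23.6 CPM in WT mice after surgery. In KO they were 7.27, 37.5, 8.48, 17.3 and 14.3 CPM at baseline and 4.14, 2.31, 19.4, 8.73 and 1.18 CPM after surgery. Every WT baseline library was above every library of the other 3 groups. The log2 difference was -2.48 (SE 0.77, adjusted p = 0.0329) for KO against WT at baseline, -2.39 (SE 0.77, adjusted p = 0.0332) for PHx in WT and -1.25 (SE 0.75, adjusted p = 0.208) for PHx in KO. Within the after-PHx groups, Mcm10 was highest in WT 1, WT 5, KO 10 and KO 11, the same mice in which the other members were high. The baseline call was lost on leaving out KO 7, KO 10, KO 11, KO 12, WT 3 or WT 5 (adjusted p from 0.0509 to 0.098), and the WT response call on leaving out the WT 1, WT 3 or WT 5 baseline library or WT 2, WT 3, WT 4 or WT 5 after PHx (0.0501 to 0.0841). With library size alone as scaling, neither the baseline call (-2.02, adjusted p = 0.0571) nor the WT response call (-1.99, 0.0536) held. Without KO 10 the KO response was called (-2.04, adjusted p = 0.0402). No annotated gene on the other strand overlaps Mcm10.

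Rrm2, the small subunit of ribonucleotide reductase, lay above the baseline range of its genotype in every after-PHx library, also in mice where the median of the set was near or below baseline. Of the other members, Orc6, Rpa2, Fen1 and Chaf1b did so in both genotypes. It had 4.16, 3.00, 2.98, 2.66 and 2.39 CPM in WT baseline and 164, 10.8, 10.8, 16.2 and 62.6 CPM in WT after PHx (log2 difference 4.13, SE 0.77, adjusted p = 0.0013). In KO it had 18.2, 11.9, 5.17, 6.73 and 3.33 CPM at baseline and 85.5, 105, 297, 31.6 and 155 CPM after PHx (3.89, SE 0.75, adjusted p = 0.00179). KO 12, KO 8 and KO 7, with low Mcm5, thus had more Rrm2 than any WT mouse except WT 1. At 48 h the KO difference from baseline was 3.39 (SE 0.63, adjusted p = 0.000759).

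Orc2, an origin recognition subunit, was the only member highest in KO 7. WT mice had 5.59, 6.45, 5.97, 4.91 and 4.86 CPM at baseline and 9.16, 9.53, 4.98, 8.61 and 9.13 CPM after surgery. KO mice had 3.75, 5.87, 2.90, 2.82 and 1.13 CPM at baseline and 21.2, 14.9, 4.81, 6.37 and 15.01 CPM after surgery. In KO the high mice were KO 7, KO 8 and KO 12, those with a low median for the set, and KO 10 and KO 11 lay near baseline. The log2 difference was 1.92 (SE 0.39, adjusted p = 0.00249) for PHx in KO and 2.45 (SE 0.38, adjusted p = 0.000255) at 48 h in KO, and 0.58 (SE 0.38, adjusted p = 0.304) for PHx in WT. Nif3l1, on the other strand, overlaps 29.8% of the Orc2 exon bases, and without a stated strand setting their reads cannot be told apart.

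Tk1 and Dut, whose products phosphorylate thymidine and break down dUTP, were below the baseline range of their genotype in WT 2, WT 3, WT 4, KO 7, KO 8 and KO 12 and above it in WT 1, WT 5 and KO 10, and KO 11 lay within it. Tk1 had 19.1, 16.2, 16.7, 17.2 and 19.7 CPM in WT baseline and 37.1, 0.174, 6.77, 0.0355 and 37.1 CPM after PHx, and 10.7, 10.1, 15.2, 11.5 and 16.8 CPM in KO baseline and 2.01, 2.57, 69.9, 14.3 and 3.36 CPM after PHx. The group differences were -0.13 (SE 1.04, adjusted p = 0.949) in WT and 0.51 (SE 1.05, adjusted p = 0.731) in KO, means of mice on both sides of baseline. With the mouse as a block, which leaves out WT 1, they were -3.09 (adjusted p = 0.207) in WT and -0.95 (adjusted p = 0.553) in KO. Dut had 8.84, 8.30, 8.23, 7.34 and 7.48 CPM in WT baseline and 29.9, 1.83, 6.73, 2.16 and 17.4 CPM after PHx, and 10.1, 8.83, 8.66, 7.56 and 10.1 CPM in KO baseline and 4.76, 6.57, 43.2, 7.73 and 6.39 CPM after PHx. Tk1 shares 83 of its 5198 exon bases with Afmid on the other strand, and without a stated strand setting reads from those bases cannot be told apart. Afmid lay below the baseline range of its genotype in every after-PHx library except KO 10: it had 23.8 to 38.5 CPM in WT baseline and 7.59, 0.78, 3.23, 0.46 and 8.48 CPM in WT 1 to 5, and 17.8 to 38.2 CPM in KO baseline and 1.80, 1.89, 21.7, 4.92 and 7.95 CPM in KO 7, 8, 10, 11 and 12. As for Tk1, the highest mice were WT 1 and WT 5 in WT and KO 10 in KO, and the part of Afmid reads in the Tk1 values was not tested.

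Beside Tk1, the WT group differences nearest 0 were those of Rnaseh2a at -0.02 (SE 0.27, adjusted p = 0.975) and Pold2 at 0.03 (SE 0.31, adjusted p = 0.965). Rnaseh2a is the catalytic subunit of RNase H2, which removes RNA from DNA, and Pold2 a subunit of polymerase delta. In all, 21 members overlap a gene on the other strand and 16 share exon bases with it, among them Fen1 (78.8% of its bases with Gm10143), Gins2 (67.3% with Gse1) and Chaf1a (52.5% with Ubxn6).

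Of 37 other replication genes outside the set, tested in the same fits, 17 rose in WT (11.4% of all genes higher) and 13 in KO (17.5% of all genes) after PHx and none fell, with medians of 1.08 and 0.93 log2 units. The highest in WT was Uhrf1, which links DNA methylation to replication, at 7.13 (SE 1.65, adjusted p = 0.00568), and in KO Asf1b at 2.70 and the uracil glycosylase Ung at 2.67 (SE 0.43, adjusted p = 0.000658). At baseline, against 11.1% of all genes higher and 4.89% lower, 0 were higher and 3 lower in KO (Dna2 -0.94, Orc4 -0.63 and Orc3 -0.53).

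Of 28 genes that control E2F and the G1 to S transition, 7 were higher and 1 lower in KO at baseline, against the same shares of all genes. The highest were Cdkn2a, the Ink4a and Arf locus, at 7.37 (SE 0.78, adjusted p = 3.1e-06), the cyclin Ccna2 at 5.00 (SE 1.60, adjusted p = 0.038) and Cdkn2b at 3.66 (SE 0.74, adjusted p = 0.00204), and Rbl2 was lower (-0.47). After PHx 10 rose and 1 fell in WT, against 11.4% and 8.68% of all genes, and 7 rose and 0 fell in KO, against 17.5% and 12.1%. Ccne1, the cyclin that starts S phase with Cdk2, rose by 4.91 (SE 0.67, adjusted p = 9.55e-05) in WT and by 4.75 (SE 0.64, adjusted p = 0.000259) in KO. The difference between the responses called 0 of these 28 genes and 0 of the 37.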

How the data were processed

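Poly(A) RNA libraries (1000 ng of RNA with a RIN above 8, paired-end NovaSeq reads, per the labels' protocols) were counted per gene by the authors, who kept uniquely mapped reads on mm10, and the deposited values are raw counts, 1 file per library. The submitters' processing notes name FastQC 0.11.5 and Trimmomatic 0.36, while the series' design text names fastp 0.20.0. The aligner, counter, strand setting and annotation release are not given in the sources used here. Of 46603 identifiers, 46091 were found in GENCODE M21, which gave symbols and lengths, and 21018 had no count. No 2 libraries held identical counts.

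Counts were fitted in edgeR 4.0.16 (R 4.3.3, limma 3.58.1) with TMM scaling, filterByExpr on the 4 groups and the quasi-likelihood test. P-values were adjusted by Benjamini-Hochberg over all 14661 genes in each of 12 comparisons, with a threshold of 0.05. The fit of the 4 groups gave 5 comparisons, and a fit of 8 means (both baselines and each hour in each genotype) gave 7, of which the test of 48 h less 40 h was added after values were seen. Standard errors were taken as the log2 fold change over the root of F and are approximate. CPM are per 1000000 counts of the TMM-scaled total, and counting intervals are 95% and cover counting error only. The test, run on simulated counts with 200 of 14661 genes changed by 2 log2 units, recovered 62% of them for PHx in WT, 73.5% for PHx in KO, 49% for the difference between the responses, 31% for KO against WT at 40 h, 33.5% at 48 h and 7.5% for 48 h less 40 h.

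Members and lists were chosen with earlier results of these data known. The rule for picking tested fold changes took a panel of 22 members in KO against WT at baseline and in PHx against baseline in each genotype. It also took the 3 highest and 3 lowest members in every comparison. The panel is drawn in full in the plot of fold changes with intervals, but not all picked values are printed. Main-fit values left out include those of Orc1, Pole2, Orc2 and Rfc1 at baseline and of Gins2, Mcm5 and Cdc6 at 40 h in WT. Genes given with values outside that rule, such as Mcm5 by hour, were chosen after their values were seen. Other lists were given by counts, with the highest and lowest called genes named. The design text says that baseline and after-PHx samples of 1 number come from 1 mouse. Residuals of same-numbered samples correlated at 0.0183, 0.0159, 0.0379 and 0.0777 in WT 2 to 5 and at 0.1521, 0.0941, -0.0549, 0.0231 and 0.1297 in KO 7, 8, 10, 11 and 12. The mouse as a block was an alternative, over the 9 mice with a number in both titles, as were DESeq2 1.42.0, other scalings and filters, a time term, fits on the compared samples alone and leaving out each library.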

Additional observations from a re-analysis of the deposited data

Results flagged for a closer look

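Each of 31 members was examined in its 4 groups of 5 libraries. In 26 of the 124 groups 1 library lay apart from the others by a gap of over 0.71 of the group's range in CPM. Such a gap arises in about 1 of 20 groups of independent normal values. Members moved together within a library and CPM are skewed, so that rate is no measure for these 26. WT 1 after PHx (30 h) stood above the other WT after-PHx libraries for 10 members: Orc6 at 16.9 CPM, Cdc6 at 35.4, Cdt1 at 61.0, Mcm2 at 102, Cdc45 at 25.2, Pcna at 168, Pold3 at 34.5, Pole2 at 8.42, Lig1 at 56.2 and Chaf1b at 28.3 CPM. KO 10 after PHx (40 h) stood above the other KO after-PHx libraries for 12: Mcm5 at 129 CPM, Gins1 at 15.6, Gins2 at 18.7, Pcna at 131, Rpa1 at 97.3, Rpa2 at 28.9, Lig1 at 59.2, Tyms at 44.4, Tk1 at 69.9, Dut at 43.2, Chaf1b at 25.2 and Clspn at 17.5 CPM. The other 4 were Orc2, low at 4.98 CPM in WT 3 after PHx, Cdt1 at 3.38 and Clspn at 0.26 CPM in the WT 1 baseline library, and Mcm10 at 159 CPM in the WT 3 baseline library.

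The edgeR test of 48 h less 40 h was added after values had been seen. It called a change of the genotype difference between hours for 10 of the members examined, where 1.61% of all genes were called higher and 3.11% lower. The members examined were the panel and the 3 highest and 3 lowest members of every comparison, this test included, so some were picked by the values tested. The changes in log2 units were -7.34 for Cdc6 (adjusted p = 0.0382), -4.32 for Cdt1 (0.0469), -4.32 for Mcm2 (0.0318), -6.03 for Mcm5 (0.0274), -2.13 for Pcna (0.0406), -3.92 for Rfc4 (0.0275), -5.27 for Pole (0.0381), -2.65 for Rpa1 (0.0171), -4.13 for Lig1 (0.0352) and -7.92 for Clspn (0.0479), each over 2 mice per genotype and hour. All 10 were lower in KO relative to WT at 48 h than at 40 h, and the number of members called ranged from 0 to 43 when single mice were left out.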

How the results depend on the processing

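Of 2043 alternative values over 126 fold changes of single members, 1834 kept their direction and side of the threshold, 103 lost and 59 gained a call, and 47 changed sign. The share of all genes called the same way stands in parentheses. At baseline, the number of members called higher in KO was 1 with DESeq2 (14.7%), 3 with library size alone (24%), 17 on the compared samples only (21.4%) and 1 without the 30 h libraries (12.4%), and the number lower was 0 with library size alone (0.771%) and 4 on the compared samples only (18%). After PHx, 1 was called higher with a time term (15.1%) and 1 without the 30 h libraries (15.1%). For PHx in WT, 4 were called higher with the replicate block (5.9%) and 19 without the 30 h libraries (12.7%), and Mcm10 was no longer lower with library size alone (0 lower, 3.97%). For PHx in KO, 19 were called higher with DESeq2 (21%), 21 with library size alone (27.7%), 14 on the compared samples only (13.1%) and 24 without the 30 h libraries (16.2%). At 40 h in WT, 7 were called higher with DESeq2 (12.7%), 10 with library size alone (16.9%) and 8 with no filter (6.55%). At 48 h in KO, library size alone called 11 higher (35.5%) and 1 lower (11.7%). For KO against WT at 48 h, 13 were called lower with DESeq2 (15.1%), 1 with library size alone (3.76%) and 14 with no filter (6.86%), and for 48 h less 40 h, 35 with DESeq2 (8.59%) and 34 with no filter (3.58%). The cause of these shifts was not tested.

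With library size alone the sign changed at baseline for Gmnn (0.39), Pola1 (0.16) and Tk1 (0.0064), for PHx in WT for Rnaseh2a (0.35) and Tk1 (0.29), for PHx in KO for Rnaseh2a (0.23), at 48 h in WT for Pold2 (0.30) and Rnaseh2a (0.34), and at 40 h between genotypes for Orc2 (0.18). Rnaseh2a for PHx in WT was also 0.0132 with DESeq2, 0.0132 with RLE scaling, 0.0419 with no filter and 0.0185 on the compared samples only, and for PHx in KO 0.11 without the 30 h libraries. With the replicate block, Pola1 was -0.0892 for PHx in WT, and Rpa1 -0.17, Tyms -0.14 and Tk1 -0.95 for PHx in KO. Beyond the calls given above, the block also lost that of Rrm1 and gained that of Pold3 for PHx in KO.

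Leaving out 1 library at a time (a lone library of an hour is then assumed to vary like the others), the count of members called, with the range of the all-gene share, ran from 0 to 1 lower at baseline (2.07% to 4.85%), 0 to 1 higher (13.1% to 19.9%) and 0 to 7 lower (5.12% to 14.4%) after PHx, 16 to 34 higher (8.26% to 12.4%) and 0 to 1 lower (5.06% to 9.09%) for PHx in WT, and 5 to 16 higher (12.1% to 22.8%) and 0 to 1 lower (7.43% to 17.6%) for PHx in KO. It ran from 2 to 4 higher (3.25% to 9.66%) and 0 to 2 lower (1.54% to 8.52%) at 40 h in WT, 7 to 36 (6.19% to 13.5%) and 0 to 2 (2.05% to 12%) at 48 h in WT, 14 to 31 higher (1.61% to 8.97%) at 40 h in KO, and 2 to 7 higher (12.1% to 22%) and 0 to 2 lower (10.8% to 20.3%) at 48 h in KO. Between genotypes it ran from 1 to 22 higher (0.964% to 11.2%) at 40 h, 0 to 28 lower (4.65% to 17%) at 48 h and 0 to 43 lower (0.087% to 13.8%) for 48 h less 40 h. Fold changes whose sign turned had these ranges: Gmnn -0.17 to 0.042 at baseline, Fen1 -0.20 to 1.07 after PHx, Rnaseh2a -0.13 to 0.13 and Tk1 -0.68 to 0.25 for PHx in WT, and Tk1 -1.08 to 1.20 for the difference of responses. For PHx in KO they were Pola1 -0.19 to 0.64, Rpa1 -0.49 to 0.44, Rnaseh2a -0.35 to 0.11, Tyms -0.60 to 0.92 and Tk1 -1.21 to 0.83. By hour they were Cdc6 -4.46 to 3.70 at 40 h in WT, Orc1 -2.85 to 6.20, Pold2 -0.22 to 0.088 and Rnaseh2a -0.39 to 0.25 at 48 h in WT, and Mcm10 -0.96 to 0.25 at 40 h in KO. Between genotypes they were Orc2 -0.77 to 0.16 and Rnaseh2a -0.36 to 0.31 at 40 h, Cdc6 -4.02 to 0.094 and Tk1 -4.13 to 5.75 at 48 h, and Orc1 -10.63 to 0.51 for 48 h less 40 h. Depth limits Orc1, Cdc6, Clspn and Pole2 most, whose WT baseline counts were 3, 10, 5 and 13 in all.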
